A study of Mus musculus with 6 samples.

Results

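The genes described here are 33 genes of glycolysis and of the response to low oxygen, of which 30 could be read on the arrays used, out of 19938 named genes in all. A gene was taken where the platform annotation gave its symbol as the only symbol of a probe set, and where a gene had several such probe sets, the brightest on average over the 6 arrays was kept. Gapdh is listed on 25 probe sets, all shared with other symbols, and was left out; Gpi1 and Eno1 are not analysed here. The list was drawn up from textbook roles, not from measured values, but with earlier results of these data known.

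Affymetrix arrays measured RNA of mouse bone marrow cells in 3 groups of 2 arrays each. C57BL/6 donor marrow, pre-treated with 5-fluorouracil in the donor, was infected with 1 of 3 retroviruses and gave the BCR-ABL-Blk group (virus with BCR-ABL, Blk and GFP), the BCR-ABL group (virus with BCR-ABL and GFP) and the vector group (virus with GFP only). The cells were then transplanted into C57BL/6 recipients. BCR-ABL is the always-active fusion kinase behind chronic myeloid leukemia. Blk belongs to the Src kinases and is best known from the B lineage. After 14 days GFP-positive cells that lacked lineage markers and carried c-Kit and Sca-1 were sorted. This gate, called LSK, holds stem cells and multipotent progenitors. All groups thus passed through the drug, the virus and the transplant; the labels give all mice as wild type and 8 weeks old, call the sorted vector cells HSCs and the others LSCs, and leave out the number of mice behind a replicate. If the replicates of a group shared mice, the p-values cover only the spread between these arrays.

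Glycolysis splits glucose into pyruvate in the cytosol and yields ATP without oxygen; lactate dehydrogenase then turns pyruvate into lactate. When oxygen is scarce, prolyl hydroxylases of the Egln family stop marking the factor Hif1a for breakdown, and with its partner Arnt it raises many genes of glucose uptake, glycolysis, mitophagy and matrix synthesis. Stem cells of the marrow are known for a low-oxygen niche and for leaning on glycolysis. Hif1a is controlled largely as a protein, which RNA arrays do not measure.

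The HIF complex binds DNA at a short core, ACGTG or GCGTG, and the promoters of 3 hypoxia targets are shown because these genes came nearest to the threshold among the hypoxia targets, in one or both of the comparisons with BCR-ABL cells. Each runs 5′ to 3′ on the gene's own strand, from 250 bases before to 50 after the RefSeq start (GRCm38.p6), with every ACGTG or GCGTG in capitals; a core of the opposite strand reads CACGT or CACGC, and overlapping cores run together. The Ankrd37 window is chr8:45999801-46000100 on the minus strand, the Bnip3 window chr7:138909457-138909756 on the minus strand and the Car9 window chr4:43506776-43507075 on the plus strand.
Ankrd37: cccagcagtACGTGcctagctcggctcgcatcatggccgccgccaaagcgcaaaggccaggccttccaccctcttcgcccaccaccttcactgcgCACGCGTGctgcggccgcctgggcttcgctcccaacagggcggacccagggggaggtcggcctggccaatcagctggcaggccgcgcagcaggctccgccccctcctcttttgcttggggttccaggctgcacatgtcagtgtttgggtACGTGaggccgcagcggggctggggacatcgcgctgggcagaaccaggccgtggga
Bnip3: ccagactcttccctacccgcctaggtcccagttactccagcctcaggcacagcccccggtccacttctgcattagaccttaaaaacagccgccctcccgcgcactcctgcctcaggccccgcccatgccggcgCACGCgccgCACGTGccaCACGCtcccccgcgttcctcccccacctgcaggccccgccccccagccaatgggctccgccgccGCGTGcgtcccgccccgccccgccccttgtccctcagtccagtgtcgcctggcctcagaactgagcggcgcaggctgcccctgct
Car9: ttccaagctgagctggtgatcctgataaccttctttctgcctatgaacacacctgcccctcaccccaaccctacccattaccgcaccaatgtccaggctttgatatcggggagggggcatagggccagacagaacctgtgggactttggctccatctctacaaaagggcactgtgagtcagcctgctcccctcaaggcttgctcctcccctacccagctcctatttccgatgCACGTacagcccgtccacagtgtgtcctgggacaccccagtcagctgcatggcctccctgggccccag
The Ankrd37 window held 4 cores, the Bnip3 window 5 and the Car9 window 1. In Bnip3, 2 of the 5 are the opposite strands of one CACGTG, the letters that Myc-type factors also read. All 30 measured genes matched the promoter table, and 23 of 30 windows (76.7%) held at least 1 core, against 11836 of 27025 windows of all genes (43.8%), taking the first window listed for each gene. For ACGTG alone the shares were 56.7% and 19.7%. The list was made of genes many of which are known HIF targets, so these shares describe the list; a match is a run of letters, not a shown binding site.

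No gene of the list passed the test in any comparison. Differences are given as log2 values of quantile-normalized signal, tested with limma over all 19938 genes with Benjamini-Hochberg adjustment and called at an adjusted p under 0.05. BCR-ABL against vector called 0 of 30 members, where 0.145% of all genes were called; BCR-ABL-Blk against BCR-ABL called 0 of 30, where 0% of all genes were called; BCR-ABL-Blk against vector called 0 of 30, where 0.14% of all genes were called. The unadjusted p was under 0.05 for 4 members in each comparison (13.3%), against 8.64%, 3.96% and 9.42% of all genes in the same order of comparisons. The 4 of BCR-ABL against vector were all higher (5.67% of all genes; 2.96% were lower), the 4 of BCR-ABL-Blk against BCR-ABL all lower (2.49% of all genes; 1.47% were higher), and those of BCR-ABL-Blk against vector were 3 higher and 1 lower (5.31% and 4.11% of all genes). The comparisons share arrays, so these counts are not independent of each other.

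The intervals bound the size of these differences. The 95% interval of a single gene lay within a 2-fold change either way for 29 of 30 members in BCR-ABL against vector, for 30 of 30 in BCR-ABL-Blk against BCR-ABL, and for 30 of 30 in BCR-ABL-Blk against vector. Over all genes these shares were 94.6%, 97.1% and 94.5%. The exception was Bnip3 in BCR-ABL against vector, with an upper bound of 2.23-fold. Within a narrower 1.5-fold change lay 19, 22 and 19 of the 30 members in that order, against 78.3%, 82.5% and 77.8% of all genes. These intervals are not adjusted for the number of genes, and they refer to measured signal, which may understate changes in RNA where a probe set reads low.

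**Figure D1:**
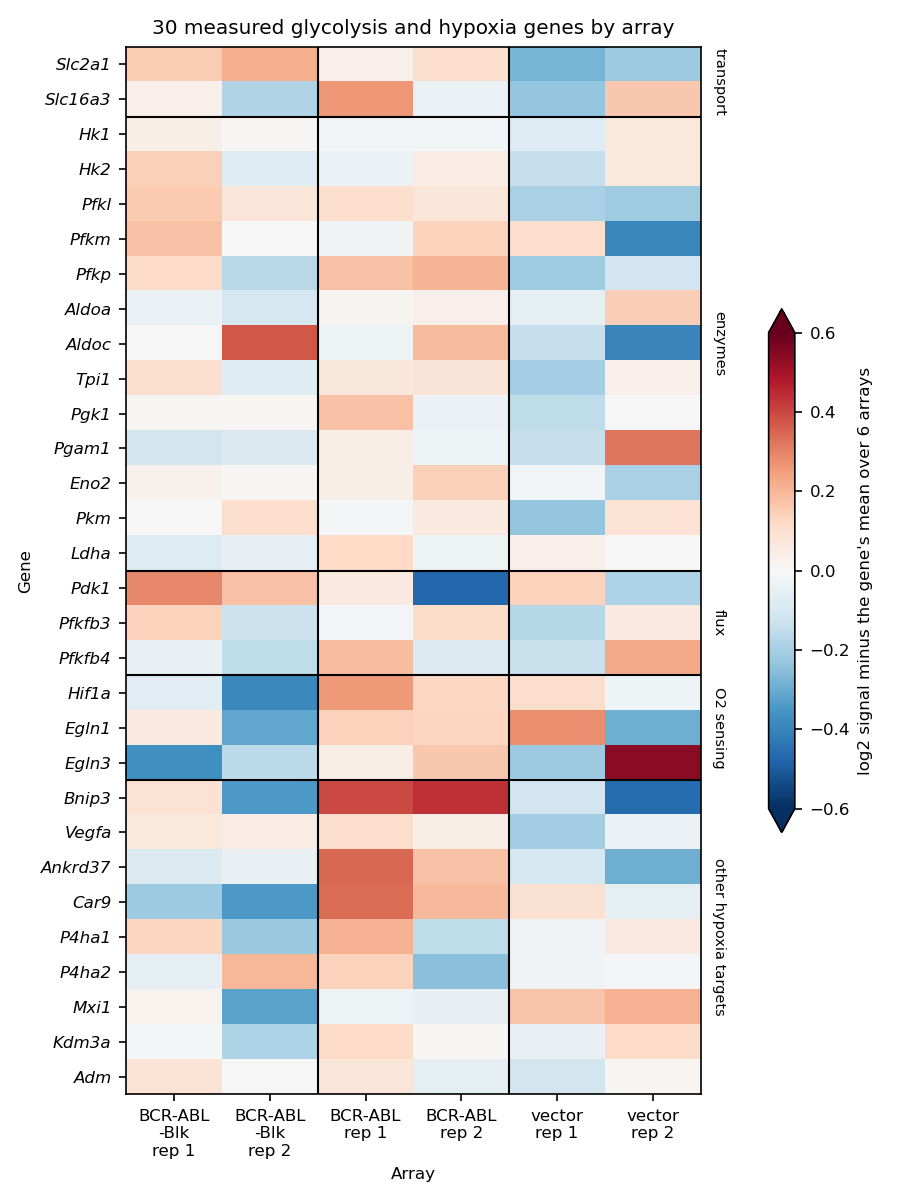
Each cell is the log2 signal of one gene (rows, grouped by role) on one array (columns), minus that gene's mean over the 6 arrays; colours saturate at 0.6 log2. The BCR-ABL arrays stand out for Bnip3, Ankrd37 and Car9, and vector replicate 2 for Egln3.

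Markers of other cell types also differed in level between the groups. Over all genes, 54.3% lay above 0 in BCR-ABL against vector, 45.6% in BCR-ABL-Blk against BCR-ABL and 51.2% in BCR-ABL-Blk against vector. All 9 measured B cell markers lay below 0 in both comparisons with vector, and their mean log2 level was 8.43 and 8.03 in BCR-ABL-Blk, 7.71 and 8.11 in BCR-ABL, and 10.8 and 9.20 in vector cells. Erythroid markers (7 measured) averaged 9.38 and 9.03 in BCR-ABL-Blk, 9.54 and 9.51 in BCR-ABL, and 10.13 and 9.77 in vector cells. Monocyte markers (7 measured) averaged 8.35 and 8.53 in BCR-ABL-Blk, 8.33 and 8.73 in BCR-ABL, and 9.47 and 10.05 in vector cells. Neutrophil granule markers (10 measured) averaged 10.28 and 10.06 in BCR-ABL-Blk, 10.39 and 10.68 in BCR-ABL, and 10.66 and 11.25 in vector cells. All 10 lay below 0 in every comparison. In BCR-ABL-Blk against BCR-ABL 7 of the 10 lay lower without overlap, against 20% of all genes (34% in either direction). Megakaryocyte markers (4 measured) averaged 8.13 and 8.08 in BCR-ABL-Blk, 8.20 and 8.15 in BCR-ABL, and 7.80 and 7.39 in vector cells, and all 4 lay above 0 in both comparisons with vector. Mast cell and basophil markers (7 measured) averaged 9.34 and 8.42 in BCR-ABL-Blk, 9.24 and 9.38 in BCR-ABL, and 8.30 and 8.11 in vector cells; 5 of the 7 lay above 0 and 2 below in both comparisons with vector, and all 7 lay below 0 in BCR-ABL-Blk against BCR-ABL. Stem cell markers (10 measured) averaged 9.47 and 9.51 in BCR-ABL-Blk, 9.39 and 9.48 in BCR-ABL, and 8.94 and 8.77 in vector cells, and 9 of these 10 lay above 0 in each comparison with vector. Kit, which the gate selects, averaged 10.53 in BCR-ABL-Blk, 10.43 in BCR-ABL and 10.81 in vector cells, and Ly6a, which encodes Sca-1, is not analysed here. Signal over background was not measured, so no marker can be called absent, and the part of these markers in the results below was not tested. In sorted cells measured in bulk, fewer cells of a type and less RNA per cell cannot be told apart.

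Glucose enters blood cells mainly through Slc2a1, the transporter GLUT1, and lactate leaves through Slc16a3, the transporter MCT4. Slc2a1 read 9.53 and 9.59 in BCR-ABL-Blk, 9.41 and 9.48 in BCR-ABL, and 9.10 and 9.16 in vector cells. Both groups with BCR-ABL lay above both vector arrays, and replicates differed by at most 0.07. The difference was 0.31 for BCR-ABL against vector (SE 0.13, 95% interval 0.02 to 0.61, limma adjusted p = 0.562) and 0.43 for BCR-ABL-Blk against vector (SE 0.13, 95% interval 0.13 to 0.73, limma adjusted p = 0.324), or 1.24-fold and 1.35-fold. The second had the smallest p of the list in that comparison. For BCR-ABL-Blk against BCR-ABL the difference was 0.12 (SE 0.13, adjusted p = 0.999). Over 13 alternative settings the difference stayed between 0.24 and 0.35 for BCR-ABL against vector and between 0.40 and 0.60 for BCR-ABL-Blk against vector, without passing. Slc16a3 read 8.33 and 8.12 in BCR-ABL-Blk, 8.56 and 8.26 in BCR-ABL, and 8.07 and 8.46 in vector cells, so its groups overlapped.

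Phosphofructokinase commits sugar to glycolysis, and the group means of its 3 subunit genes lay above vector in both groups with BCR-ABL. Pfkl, the liver-type subunit, read 8.86 and 8.78 in BCR-ABL-Blk, 8.81 and 8.78 in BCR-ABL, and 8.51 and 8.49 in vector cells. Its vector arrays lay below the other 4, with differences of 0.29 for BCR-ABL (SE 0.13, limma adjusted p = 0.592) and 0.32 for BCR-ABL-Blk (SE 0.13, limma adjusted p = 0.494). Pfkp, the platelet-type subunit, read 9.95 and 9.67 in BCR-ABL-Blk, 10.01 and 10.04 in BCR-ABL, and 9.62 and 9.72 in vector cells. Both BCR-ABL arrays were the highest, at a difference of 0.35 from vector (SE 0.14, limma adjusted p = 0.538). BCR-ABL-Blk replicate 2 lay between the vector arrays, and the BCR-ABL-Blk group differed by −0.21 from BCR-ABL (SE 0.14, adjusted p = 0.999; −0.07 without that array) and by 0.14 from vector (SE 0.14, adjusted p = 0.843). Pfkm, the muscle-type subunit, differed by 0.20 and 0.24 from vector in BCR-ABL and BCR-ABL-Blk cells, but its vector arrays were 0.50 apart, so the groups overlapped.

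Aldolase splits the sugar that phosphofructokinase makes. Aldoc, the form best known from brain, read 7.39 and 7.76 in BCR-ABL-Blk, 7.36 and 7.58 in BCR-ABL, and 7.25 and 6.99 in vector cells. The vector arrays were the lowest, with differences of 0.35 for BCR-ABL (SE 0.17, limma adjusted p = 0.625) and 0.46 for BCR-ABL-Blk (SE 0.17, limma adjusted p = 0.436). Aldoa, the form most tissues use, ranged only from 11.72 to 11.97 over the 6 arrays and differed from vector by −0.03 in BCR-ABL and by −0.12 in BCR-ABL-Blk cells.

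**Figure D2:**
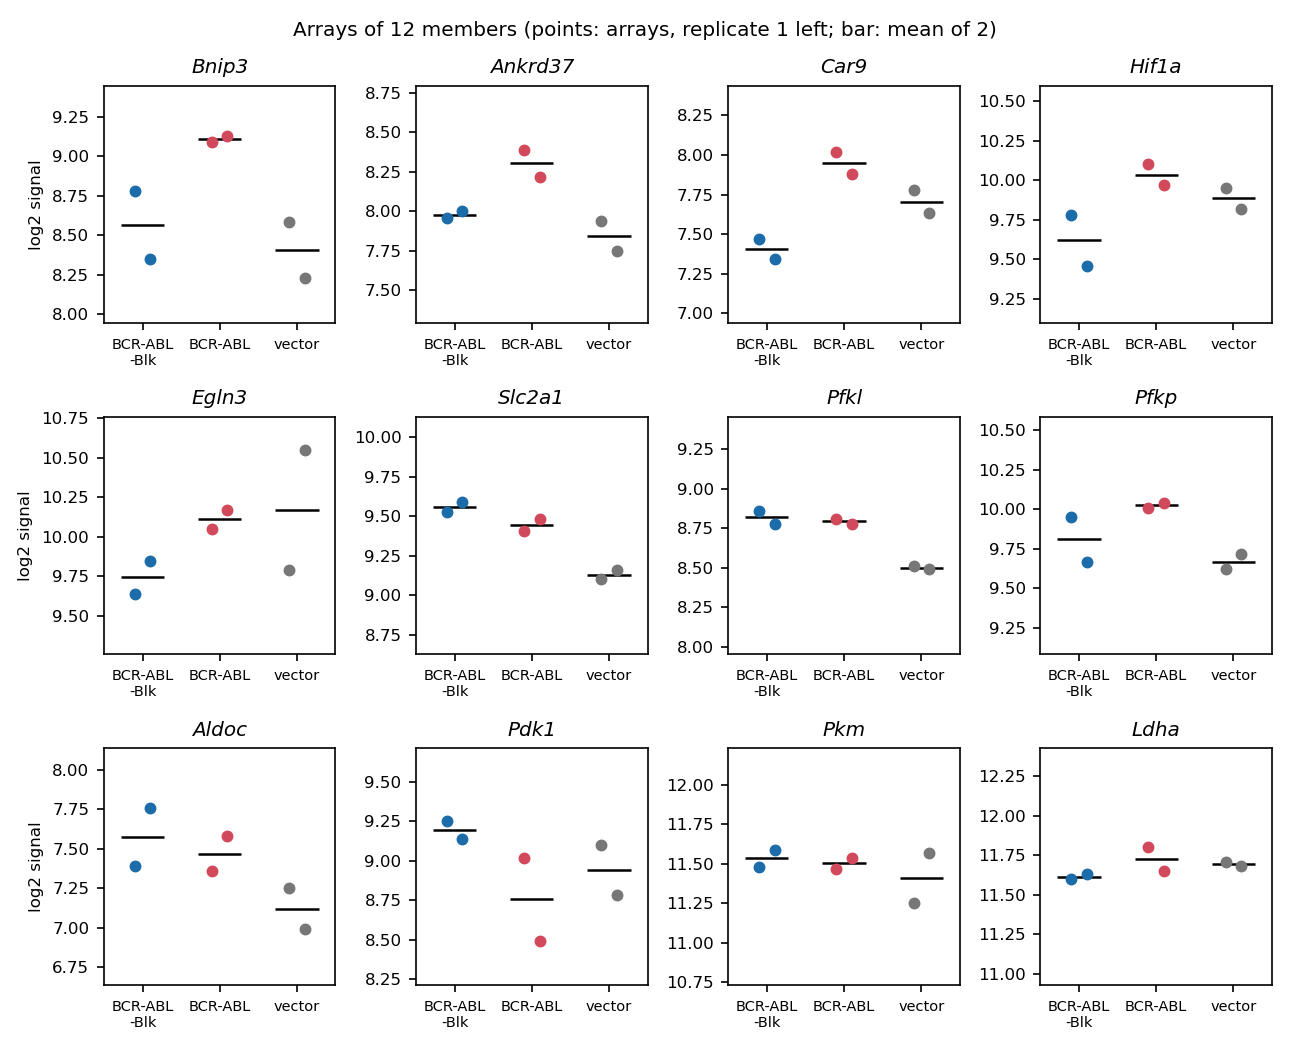
Log2 signal of 12 genes on each array (points, replicate 1 left) with the mean of the 2 arrays (bar); every panel spans 1.5 log2. The vector arrays are lowest for Slc2a1, Pfkl and Aldoc, the BCR-ABL arrays highest for Bnip3, Ankrd37 and Car9, and the groups of Pkm and Egln3 overlap in part.

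The other enzymes of the pathway differed little between groups. Hk2, the inducible hexokinase, read 8.87 and 8.65 in BCR-ABL-Blk, 8.69 and 8.77 in BCR-ABL, and 8.59 and 8.79 in vector cells, with all groups overlapping. Its differences were 0.04 for BCR-ABL against vector (SE 0.15, adjusted p = 0.972), 0.03 for BCR-ABL-Blk against BCR-ABL (SE 0.15) and 0.07 for BCR-ABL-Blk against vector (SE 0.15, adjusted p = 0.945). Pkm, pyruvate kinase, read 11.48 and 11.59 in BCR-ABL-Blk, 11.47 and 11.54 in BCR-ABL, and 11.25 and 11.57 in vector cells. Its differences were 0.10 for BCR-ABL against vector (95% interval −0.16 to 0.36), 0.03 for BCR-ABL-Blk against BCR-ABL (−0.23 to 0.29) and 0.12 for BCR-ABL-Blk against vector (−0.14 to 0.38). Ldha, the lactate dehydrogenase subunit of glycolytic cells, read 11.60 and 11.63 in BCR-ABL-Blk, 11.80 and 11.65 in BCR-ABL, and 11.71 and 11.68 in vector cells. Both BCR-ABL-Blk arrays were the lowest for Ldha, though by little: the difference was −0.11 from BCR-ABL (95% interval −0.28 to 0.05) and −0.08 from vector (95% interval −0.25 to 0.08), and 0.03 for BCR-ABL against vector (95% interval −0.14 to 0.20). For Ldha these intervals leave out a change of 1.5-fold in either direction in each comparison. Triosephosphate isomerase (Tpi1), phosphoglycerate kinase (Pgk1) and the enolase form of neurons (Eno2) differed by 0.16, 0.15 and 0.19 for BCR-ABL against vector and by −0.07 each for BCR-ABL-Blk against BCR-ABL. Phosphoglycerate mutase (Pgam1) differed by −0.08 for BCR-ABL against vector, with vector arrays 0.46 apart.

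Several of these enzymes have near-identical copies in the genome, so the gene behind a probe set is not always certain. Pgk1 has 3 single-symbol probe sets and Pgam1 has 3; in each gene 2 of them carry identical values on all 6 arrays. Hk1 needs the same caution. Its probe set chosen by highest mean averaged 12.71, and 16 probe sets annotated to both Hk1 and the ribosomal protein gene Rpl17 averaged between 12.16 and 13.14. The Hk1 probe set that lists RefSeq transcripts averaged 9.99. It gave 0.00 for BCR-ABL against vector, −0.03 for BCR-ABL-Blk against BCR-ABL and −0.03 for BCR-ABL-Blk against vector, so neither probe set gave a difference that passed. Over the 13 measured enzymes, 10 lay above 0 for BCR-ABL against vector (median 0.15), 6 for BCR-ABL-Blk against BCR-ABL (median −0.07) and 10 for BCR-ABL-Blk against vector (median 0.10). The shares of all genes above 0 were 54.3%, 45.6% and 51.2% in the same order.

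Pdk1 is the kinase that shuts pyruvate dehydrogenase and so keeps pyruvate out of mitochondria. It read 9.25 and 9.14 in BCR-ABL-Blk, 9.02 and 8.49 in BCR-ABL, and 9.10 and 8.78 in vector cells. Both BCR-ABL-Blk arrays were the highest, but the BCR-ABL arrays lay 0.52 apart. The difference was 0.44 for BCR-ABL-Blk against BCR-ABL (SE 0.21, limma adjusted p = 0.999), 0.26 for BCR-ABL-Blk against vector (SE 0.21, limma adjusted p = 0.794) and −0.18 for BCR-ABL against vector (SE 0.21, limma adjusted p = 0.867). Without BCR-ABL replicate 2, which read lowest, the difference of BCR-ABL-Blk from BCR-ABL was 0.18, and that of BCR-ABL from vector was 0.08. Pfkfb3 and Pfkfb4, enzymes that set the level of the sugar phosphate activating phosphofructokinase, differed by 0.10 and 0.01 for BCR-ABL against vector, by −0.04 and −0.15 for BCR-ABL-Blk against BCR-ABL, and by 0.06 and −0.15 for BCR-ABL-Blk against vector, with overlapping arrays.

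The 3 members of oxygen sensing, Hif1a, Egln1 and Egln3, read lower in BCR-ABL-Blk than in BCR-ABL cells on every array, without passing. In that comparison 20% of all genes lay lower without overlap, and 34% in either direction. From the further list of oxygen sensing genes, Egln2 differed there by 0.05, Vhl by −0.10 and Hif1an by −0.34, each with overlapping arrays. Hif1a, the oxygen-regulated factor itself, read 9.78 and 9.46 in BCR-ABL-Blk, 10.10 and 9.97 in BCR-ABL, and 9.95 and 9.82 in vector cells. Its BCR-ABL-Blk arrays were the lowest of the 6, with a difference of −0.42 from BCR-ABL (SE 0.15, 95% interval −0.77 to −0.07, limma adjusted p = 0.999) and of −0.26 from vector (SE 0.15, limma adjusted p = 0.658). The difference of Hif1a from BCR-ABL was −0.26 without BCR-ABL-Blk replicate 2 and −0.19 in the deposited values without normalization between arrays, where the median gene differed by 0.25. The one from vector was −0.11 without BCR-ABL-Blk replicate 2 and −0.42 without replicate 1. BCR-ABL differed from vector by 0.16 (SE 0.15, limma adjusted p = 0.835). Egln1, the main prolyl hydroxylase that marks Hif1a, read 9.68 and 9.31 in BCR-ABL-Blk, 9.76 and 9.75 in BCR-ABL, and 9.90 and 9.33 in vector cells; BCR-ABL-Blk differed from BCR-ABL by −0.26 (SE 0.21).

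Egln3, a hydroxylase that low oxygen itself raises, showed the widest spread within a group. It read 9.64 and 9.85 in BCR-ABL-Blk, 10.05 and 10.17 in BCR-ABL, and 9.79 and 10.55 in vector cells, so the vector arrays lay 0.76 apart and spanned both BCR-ABL arrays. The difference was −0.36 for BCR-ABL-Blk against BCR-ABL (SE 0.24, adjusted p = 0.999) and −0.43 for BCR-ABL-Blk against vector (SE 0.24, limma adjusted p = 0.654). Without vector replicate 1 the comparison with vector gave −0.81 (SE 0.15, limma adjusted p = 0.034), which passed, in a setting where 2.81% of all genes passed. Without vector replicate 2 it gave −0.04 (SE 0.15, limma adjusted p = 0.986). Each of these settings leaves 1 vector array, which is assumed to vary like the other groups. The pass was the 1 case in which a member passed under any alternative, and it was singled out after the values were seen.

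Bnip3, a receptor for the removal of mitochondria and a classic HIF target, had the largest difference of the list. It read 8.78 and 8.35 in BCR-ABL-Blk, 9.09 and 9.13 in BCR-ABL, and 8.58 and 8.23 in vector cells. Both BCR-ABL arrays lay above the other 4, which overlapped. BCR-ABL differed from vector by 0.70 (SE 0.19, 95% interval 0.25 to 1.15, limma adjusted p = 0.314), which is 1.63-fold, and BCR-ABL-Blk differed from BCR-ABL by −0.55 (SE 0.19, limma adjusted p = 0.999), which is 0.684-fold with a 95% interval of 0.50 to 0.935. For BCR-ABL-Blk against vector the difference was 0.16 (SE 0.19, adjusted p = 0.887). A second Bnip3 probe set gave 0.87, −0.77 and 0.09 for these comparisons in the same order, with an SE of 0.37. The difference of −0.55 was −0.76 without BCR-ABL-Blk replicate 1, −0.33 without BCR-ABL-Blk replicate 2 and −0.29 in the deposited values. In those deposited values the median gene differed by 0.25 between the same groups. Leaving out vector replicate 2 gave 0.53 for BCR-ABL against vector, and leaving out vector replicate 1 gave 0.88. Each of these settings leaves 1 vector array, and Bnip3 passed under no alternative in this comparison.

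Ankrd37, a small ankyrin repeat protein raised by HIF, read 7.96 and 8.00 in BCR-ABL-Blk, 8.39 and 8.22 in BCR-ABL, and 7.94 and 7.75 in vector cells. The BCR-ABL arrays were again the highest, with a difference of 0.46 from vector (SE 0.14, 95% interval 0.14 to 0.78, limma adjusted p = 0.358). BCR-ABL-Blk differed from BCR-ABL by −0.32 (SE 0.14, limma adjusted p = 0.999), a difference of −0.03 in the deposited values without normalization between arrays, where the median gene differed by 0.25. Car9, the carbonic anhydrase IX of hypoxic tumours, read 7.47 and 7.34 in BCR-ABL-Blk, 8.02 and 7.88 in BCR-ABL, and 7.78 and 7.63 in vector cells. For Car9 the 3 groups did not overlap: BCR-ABL was highest and BCR-ABL-Blk lowest. Its difference of −0.54 in BCR-ABL-Blk against BCR-ABL had a 95% interval of −0.84 to −0.25 and an SE of 0.13. By limma its adjusted p was 0.999, although its unadjusted p of 0.0033 ranked 39 of 19938 genes in that comparison. In the deposited values the Car9 difference was −0.25. Car9 differed by 0.24 for BCR-ABL against vector (SE 0.13, adjusted p = 0.66) and by −0.30 for BCR-ABL-Blk against vector (SE 0.13, adjusted p = 0.521).

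The remaining hypoxia targets lay nearer 0 or on the other side of it. Vegfa, the main angiogenic growth factor, read 8.55 and 8.53 in BCR-ABL-Blk, 8.59 and 8.52 in BCR-ABL, and 8.28 and 8.45 in vector cells. Both groups with BCR-ABL lay above both vector arrays, at differences of 0.19 for BCR-ABL (SE 0.14, adjusted p = 0.761) and 0.18 for BCR-ABL-Blk (SE 0.14, adjusted p = 0.781), and differed from each other by −0.02. Mxi1, a Myc antagonist, went the other way: it read 8.78 and 8.44 in BCR-ABL-Blk, 8.73 and 8.71 in BCR-ABL, and 8.93 and 8.97 in vector cells, with differences from vector of −0.34 for BCR-ABL-Blk (SE 0.16, adjusted p = 0.56) and −0.23 for BCR-ABL (SE 0.16, adjusted p = 0.754). The collagen prolyl hydroxylases P4ha1 and P4ha2, the histone demethylase Kdm3a and the peptide hormone adrenomedullin (Adm) differed by −0.04 to 0.05 for BCR-ABL against vector, and by −0.16 to 0.13 for BCR-ABL-Blk against BCR-ABL.

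**Figure D3:**
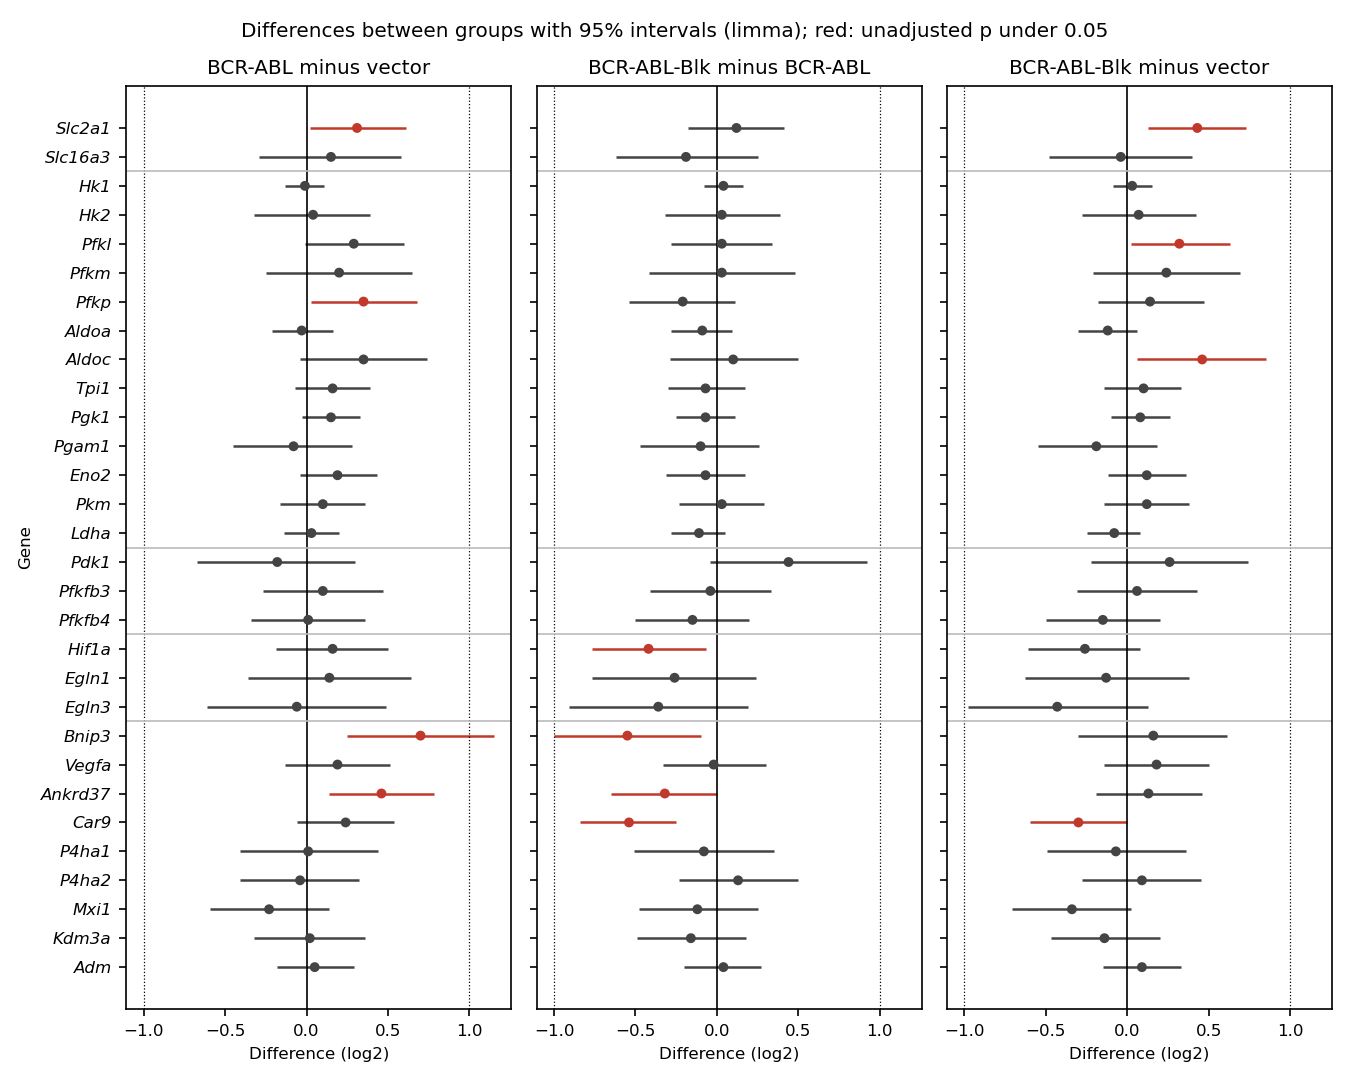
Log2 difference of each gene (rows, grouped by role) with its 95% interval from limma, in the 3 comparisons; dotted lines mark a 2-fold change and red marks an unadjusted p under 0.05. Bnip3 reaches 0.70 and Ankrd37 0.46 in BCR-ABL minus vector, and Bnip3 −0.55 and Car9 −0.54 in BCR-ABL-Blk minus BCR-ABL.

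Counted over the list, more members lay above 0 than below it in BCR-ABL cells against vector, and more lay below 0 in BCR-ABL-Blk cells against BCR-ABL. For BCR-ABL against vector 23 of 30 members lay above 0 (76.7%), against 54.3% of all genes, with a median of 0.12 against 0.02. With no overlap between the arrays of the groups, 11 of 30 members lay higher and 1 lower, against 22.1% and 14.9% of all genes (37% in either direction). For BCR-ABL-Blk against BCR-ABL 10 of 30 lay above 0, against 45.6% of all genes, with a median of −0.08 against −0.01; 3 members lay higher and 12 lower without overlap, against 14% and 20% of all genes (34% in either direction). For BCR-ABL-Blk against vector 18 of 30 lay above 0, against 51.2% of all genes, with a median of 0.08 against 0.00, and 8 lay higher and 4 lower without overlap, against 19.7% and 17.5% (37.2% in either direction). The arrays of BCR-ABL enter both the first and the second comparison, so a high reading there tilts them in opposite directions.

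The level of the members also varied between arrays of a group. Their median log2 level on an array had a pooled within-group SD of 0.073 for BCR-ABL and vector. This SD was 0.146 for BCR-ABL-Blk and BCR-ABL, and 0.128 for BCR-ABL-Blk and vector. It describes levels and not the gene differences, so it cannot serve as the error of the medians above. The mean log2 level of the members was 9.27 and 9.18 in BCR-ABL-Blk, 9.36 and 9.29 in BCR-ABL, and 9.17 and 9.22 in vector cells. Without vector replicate 1, which also had the highest B cell markers, the median difference for BCR-ABL against vector was 0.02. In the deposited values without normalization between arrays the median for BCR-ABL-Blk against BCR-ABL was 0.15, where the median of all genes was 0.25, so the members lay below all genes there too.

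Genes of the same pathways from separate lists likewise gave 0 calls. Among 24 other glycolysis genes, the unadjusted p was under 0.05 for 3 in BCR-ABL against vector, all higher (12.5%, against 8.64% of all genes), for 1 in BCR-ABL-Blk against BCR-ABL, which was lower (4.17%, against 3.96%), and for 7 in BCR-ABL-Blk against vector, 4 higher and 3 lower (29.2%, against 9.42%). Of the 24, 15 lay above 0 in the first comparison (median 0.07), 11 in the second and 12 in the third, against 54.3%, 45.6% and 51.2% of all genes. Pdk3, another pyruvate dehydrogenase kinase, came nearest, at 0.56 for BCR-ABL against vector (SE 0.09, limma adjusted p = 0.0923) and 0.71 for BCR-ABL-Blk against vector (SE 0.09, limma adjusted p = 0.0546). Slc2a3, the high-affinity glucose transporter GLUT3, gave 0.42 (adjusted p = 0.49) and 0.59 (adjusted p = 0.26) in those comparisons by limma, and phosphoglucomutase Pgm1 gave 0.36 in the first. Ldhb, the lactate dehydrogenase subunit of oxidative tissues, differed by 0.47 for BCR-ABL-Blk against vector. The 3 lower genes of that comparison were the liver and red cell pyruvate kinase Pklr at −0.72 (limma adjusted p = 0.426), the hexokinase Hk3 at −0.67 (limma adjusted p = 0.404) and Slc16a1 at −0.49 (limma adjusted p = 0.336). Slc16a1, the lactate transporter MCT1, had the smallest p for BCR-ABL-Blk against BCR-ABL, at −0.47 (SE 0.15, adjusted p = 0.999), followed by Pdk3 at 0.15 and Ldhb at 0.21.

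Among 31 other genes of oxygen sensing and hypoxia, 18 lay above 0 for BCR-ABL against vector (median 0.10), 7 for BCR-ABL-Blk against BCR-ABL (median −0.13) and 20 for BCR-ABL-Blk against vector (median 0.03). Over all genes these shares were 54.3%, 45.6% and 51.2%. The unadjusted limma p was under 0.05 for 6 in the first comparison, 5 higher and 1 lower (19.4%, against 8.64% of all genes). It was so for 1 in the second, which was lower (3.23%, against 3.96%), and for 7 in the third, 3 higher and 4 lower (22.6%, against 9.42%). The transcriptional repressor Bhlhe40 read 8.01 and 6.87 in BCR-ABL-Blk, 7.69 and 7.90 in BCR-ABL, and 6.10 and 5.80 in vector cells, so the BCR-ABL-Blk arrays lay on either side of both BCR-ABL arrays, and all 4 lay above vector. It had differences from vector of 1.49 (SE 0.33, limma adjusted p = 0.164) and 1.85 (SE 0.33, limma adjusted p = 0.103) for BCR-ABL-Blk and BCR-ABL. The Bhlhe40 difference of BCR-ABL-Blk from vector was 0.92 without BCR-ABL-Blk replicate 1 and 2.06 without replicate 2. The one of BCR-ABL from vector kept 1.85 without either BCR-ABL-Blk array. Its lowest value with a single array left out was 1.70, without vector replicate 2. Each of these settings leaves 1 array in a group, so only the differences are given. In the deposited values the differences from vector were 1.62 and 1.70 for BCR-ABL-Blk and BCR-ABL (SE 0.28 each), and both passed. Many more genes passed on that scale than in the main fit, and its array medians ran from 7.01 to 7.52. Plod2, a lysyl hydroxylase of collagen, differed from vector by 0.76 (limma adjusted p = 0.249) and 1.00 (limma adjusted p = 0.142) in the same order. Car12, carbonic anhydrase XII, differed by 0.61 for BCR-ABL against vector (adjusted p = 0.173), and the nuclear receptor Rora by −0.42 for BCR-ABL-Blk against vector (adjusted p = 0.245). For BCR-ABL-Blk against BCR-ABL the smallest p belonged to Higd1a at −0.23, Stc2 at −0.30 and Ddit4 at −0.25, each at an adjusted p of 0.999.

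The pentose phosphate pathway branches off glycolysis to make NADPH and ribose. Of its 6 measured genes 0 passed in any comparison. Of the 6 pentose phosphate genes 1 lay above 0 in BCR-ABL against vector (median −0.10), against 54.3% of all genes. The smallest p-values there belonged to Pgls (phosphogluconolactonase) at −0.28, Taldo1 (transaldolase) at −0.30 and Pgd (phosphogluconate dehydrogenase) at −0.14. In BCR-ABL-Blk against BCR-ABL the median was 0.00, with Taldo1 at −0.15, Pgls at 0.08 and Rpe at −0.07. In BCR-ABL-Blk against vector the median was −0.10, with Taldo1 at −0.45 (limma adjusted p = 0.403), Pgls at −0.20 and Pgd at −0.17.

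Of 16 genes that carry pyruvate into and around the TCA cycle, 0 passed and 0 had an unadjusted limma p under 0.05 in any comparison. Their medians were 0.06 in BCR-ABL against vector, −0.01 in BCR-ABL-Blk against BCR-ABL and 0.00 in BCR-ABL-Blk against vector. The smallest p-values belonged to Pcx (pyruvate carboxylase) at 0.20, Sdha (a succinate dehydrogenase subunit) at 0.14 and Suclg1 (a succinyl-CoA ligase subunit) at 0.21 in the first comparison. They belonged to Fh1 (fumarase) at −0.29, Mdh2 (malate dehydrogenase) at −0.14 and Pcx at −0.20 in the second, and to Mdh2 at −0.12, Sdha at 0.13 and Ogdh (oxoglutarate dehydrogenase) at 0.27 in the third.

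Of 11 measured upstream factors, among them Hif1a again, 0 passed. Arnt, the partner of Hif1a, differed by 0.32 in BCR-ABL against vector, by −0.05 in BCR-ABL-Blk against BCR-ABL and by 0.27 in BCR-ABL-Blk against vector. Myc, which also drives glycolytic genes, differed by 0.01, −0.07 and −0.06 in the same order. Mtor, the growth kinase, was at −0.17 in the first comparison and its activator Rheb at −0.12 in the second. Akt2, a kinase of insulin signalling, was at 0.23 in the second and at 0.34 in the third (limma adjusted p = 0.431).

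**Figure D4:**
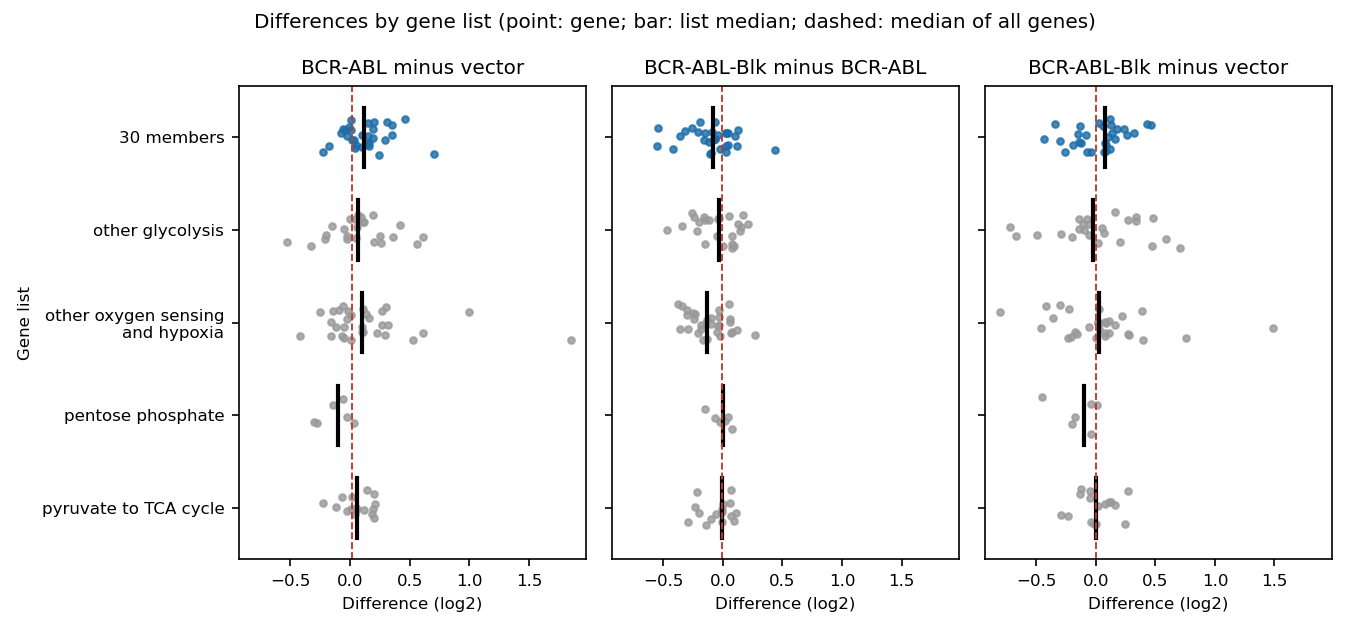
Log2 differences of single genes (points) for the 30 genes and 4 further lists (rows) in the 3 comparisons, with each list's median (bar) and the median of all genes (dashed line). The list medians lie between −0.13 and 0.12, and the points farthest above 0 in BCR-ABL minus vector are Bhlhe40 at 1.85 and Plod2 at 1.00, both in the list of other hypoxia genes.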

How the data were processed

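Total RNA of sorted marrow cells was labelled and hybridised to 1 array per sample, 6 arrays in all. Groups and replicate numbers come from the sample titles. The deposited values are log2 signals of 35557 probe sets, made with Affymetrix Expression Console 1.1 and RMA per the submitters' processing notes; its options, and any genome build, were not given in the sources used here. Array medians of the deposited log2 values ran from 7.01 to 7.52, so the arrays were quantile normalized before testing. The platform annotation gave 1 symbol to 21789 probe sets and several to 1621, which were not named. Keeping the probe set with the highest mean per gene left 19938 genes; no filter on level was applied.

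Group means were compared in limma 3.58.1 under R 4.3.3, using lmFit and a trended eBayes on the 6 arrays together, without a block, with 3 residual degrees of freedom and 4.4 from the prior. P-values are two-sided and adjusted over 19938 genes of a comparison (Benjamini-Hochberg). The fit was tested on simulated data. The number of arrays limits the precision, and signal over background was not measured. Alternatives were the deposited scale, median centring, no trend, a replicate block, only the arrays compared, a level filter, averaged probe sets and leaving out each array. Reading Hk1 by its other probe set was added after seeing the data. Same-numbered arrays did not deviate together over the genes (r = −0.0618, 0.0334 and 0.0841 between pairs of groups). With a single gap between replicates per group, this cannot decide whether same-numbered samples share mice or days, which the labels do not state. No labels or headers give a batch.

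All 30 measured members could be named. Values for every array were planned for members called and for those with an unadjusted p under 0.05 in a comparison (at most 8). They were also planned for Slc2a1, Hk2, Pfkp, Pkm, Ldha, Pdk1, Hif1a and Vegfa, giving 13 in all. Others are named by range. Egln3, Egln1, Mxi1, Slc16a3, Pklr, Hk3, Egln2, Hif1an and Vhl were added after their values were seen. For each further pathway list the 3 smallest p-values of a comparison are named where 0 were called. Members, lists and rules were chosen with earlier results of these data known. Promoter windows are from RefSeq tables (GRCm38.p6). Figures were drawn with Python 3.11.15 and matplotlib 3.10.9.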

Additional observations from a re-analysis of the deposited data

How the results depend on the processing

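No member passed under the setting reported above. Leaving out single arrays gave 0 to 1 members in BCR-ABL-Blk against vector, the 1 being Egln3 without vector replicate 1, and no other alternative gave any. Counts over all genes varied more. On the deposited scale array medians ran from 7.01 to 7.52, and the 4.4 prior degrees of freedom given above hold for the main fit only. For BCR-ABL against vector 29 genes passed; the count was 401 on the deposited scale, 55 with median centring, 53 above the median level, 15 without the trend, and 1 (without BCR-ABL replicate 1) to 507 (without vector replicate 1) when single arrays were left out. For BCR-ABL-Blk against BCR-ABL 0 passed; it was 79 on the deposited scale and 0 to 2 with single arrays left out, while 790 genes had an unadjusted p under 0.05. For BCR-ABL-Blk against vector 28 passed; it was 732 on the deposited scale, 71 with median centring, 71 above the median level, 4 without the trend, 4 with only the arrays compared, and 4 to 560 with single arrays left out. With a replicate block the counts were 29, 0 and 23 in the same order, and it changed no call of a member. The median of the members on the deposited scale was 0.04, 0.15 and 0.23 in the same order, where that of all genes was −0.11, 0.25 and 0.15; with single arrays left out it ran from 0.02 to 0.16, from −0.11 to −0.04 and from −0.03 to 0.09. Signs of small differences turned without any call. On the deposited scale these were Hk2 (−0.06, BCR-ABL against vector), Ldha (0.02) and Vegfa (0.27) for BCR-ABL-Blk against BCR-ABL, and Ldha (0.07, BCR-ABL-Blk against vector); with median centring, Pkm (−0.09, BCR-ABL-Blk against BCR-ABL). With single arrays left out, the difference for BCR-ABL against vector ran from −0.06 to 0.14 for Hk2, −0.04 to 0.11 for Ldha, −0.44 to 0.08 for Pdk1 and −0.06 to 0.26 for Pkm. For BCR-ABL-Blk against BCR-ABL it ran from −0.08 to 0.29 for Aldoc, −0.08 to 0.14 for Hk2, −0.01 to 0.07 for Pfkl, −0.03 to 0.08 for Pkm and −0.05 to 0.02 for Vegfa. For BCR-ABL-Blk against vector it ran from −0.06 to 0.37 for Bnip3, −0.04 to 0.18 for Hk2 and −0.04 to 0.29 for Pkm. The other 483 of 504 member values did not turn to the opposite sign, counting values of 0.00 as not turned. These 504 values cover only 13 of the 30 measured members. Egln3, which is not among the 13, turned from −0.06 to 0.32 for BCR-ABL against vector without vector replicate 2. Pfkp was at 0.00 for BCR-ABL-Blk against BCR-ABL on the deposited scale, and for BCR-ABL-Blk against vector without BCR-ABL-Blk replicate 1. Reading Hk1 by its other probe set, an alternative chosen after seeing the data, left all 3 medians as they were. The cause of these shifts was not tested. Only 2 arrays per group and an unmeasured background limit the precision.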
